A study of Sus scrofa with 5 samples.

Results

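The genes described here are 9 that act in coagulation and fibrinolysis: VWF, THBD, PROCR, TFPI, F3, PLAT, PLAU, PLAUR and SERPINE2. They were taken by symbol, and each matched 1 of the 35670 features of the count tables. The nuclei came from the abdominal aorta of castrated male Ossabaw pigs, a breed used as a model of obesity and metabolic disease. The obese group was 3 pigs given a diet rich in fat and fructose, and the control group was 2 pigs given chow. In both groups the diet began at 12 months of age, and the labels give its length as 6 months in the sample records and as 9 months in the series text. The title calls the aortae atherosclerotic or healthy, and no lesion measure was analysed here. Nuclei were freed from about 50 mm of frozen vessel per sample, sorted on the DNA dye DRAQ5 and sequenced as droplet libraries with 1 library per pig.

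Haemostasis in a vessel wall balances clot formation against clot removal. Von Willebrand factor tethers platelets, and tissue factor (F3) starts coagulation when it meets blood, while thrombomodulin (THBD), the endothelial protein C receptor (PROCR) and tissue factor pathway inhibitor (TFPI) hold coagulation back. Tissue-type and urokinase-type plasminogen activators (PLAT and PLAU) make plasmin, which dissolves fibrin, the urokinase receptor (PLAUR) holds urokinase at the cell surface, and protease nexin 1 (SERPINE2) inhibits thrombin and both activators.

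The libraries of the obese pigs held 22400089 to 35655806 UMIs (counted RNA molecules) and those of the control pigs 47724416 and 21516249. Obese replicates 1 to 3 gave 7144, 9289 and 9041 nuclei that passed the filters and control replicates 1 and 2 gave 11075 and 5437, while 198 of 45303 barcode sequences occurred in more than 1 library. Clustering and marker genes gave 7 classes with at least 20 nuclei in every pig, named with the ending "-like" because the names rest on markers alone. Levels are given as UMIs of a gene per 1000000 UMIs of a class in a pig (CPM), and each class has its own test by pig. Levels are compared between pigs and between classes, not between genes. A gene is said to have risen or fallen only at an adjusted p under 0.05 over all genes tested in the class by the quasi-likelihood test of edgeR.

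Among the 7 classes tested, VWF, THBD, PROCR, TFPI and PLAT had their highest mean level in endothelial-like nuclei, F3 and SERPINE2 in fibroblast-like nuclei, and PLAU and PLAUR in macrophage-like nuclei. Lymphatic endothelial-like nuclei, too few to be among the 7, had a higher mean of VWF, THBD, PROCR, TFPI and PLAT than endothelial-like nuclei, but not in every pig. In them VWF was lower in every obese pig and THBD in both control pigs. PROCR was higher in obese replicate 2 alone, and TFPI rested on 7 UMIs. These nuclei are described at the end. Classes were formed from the same nuclei, so these orders are descriptions without a test. For VWF, THBD, F3 and PLAUR, every pig's level in the highest class lay above every pig's level in the next class. For the other 5 genes the pigs overlapped between the first and the next class.

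**Figure D1:**
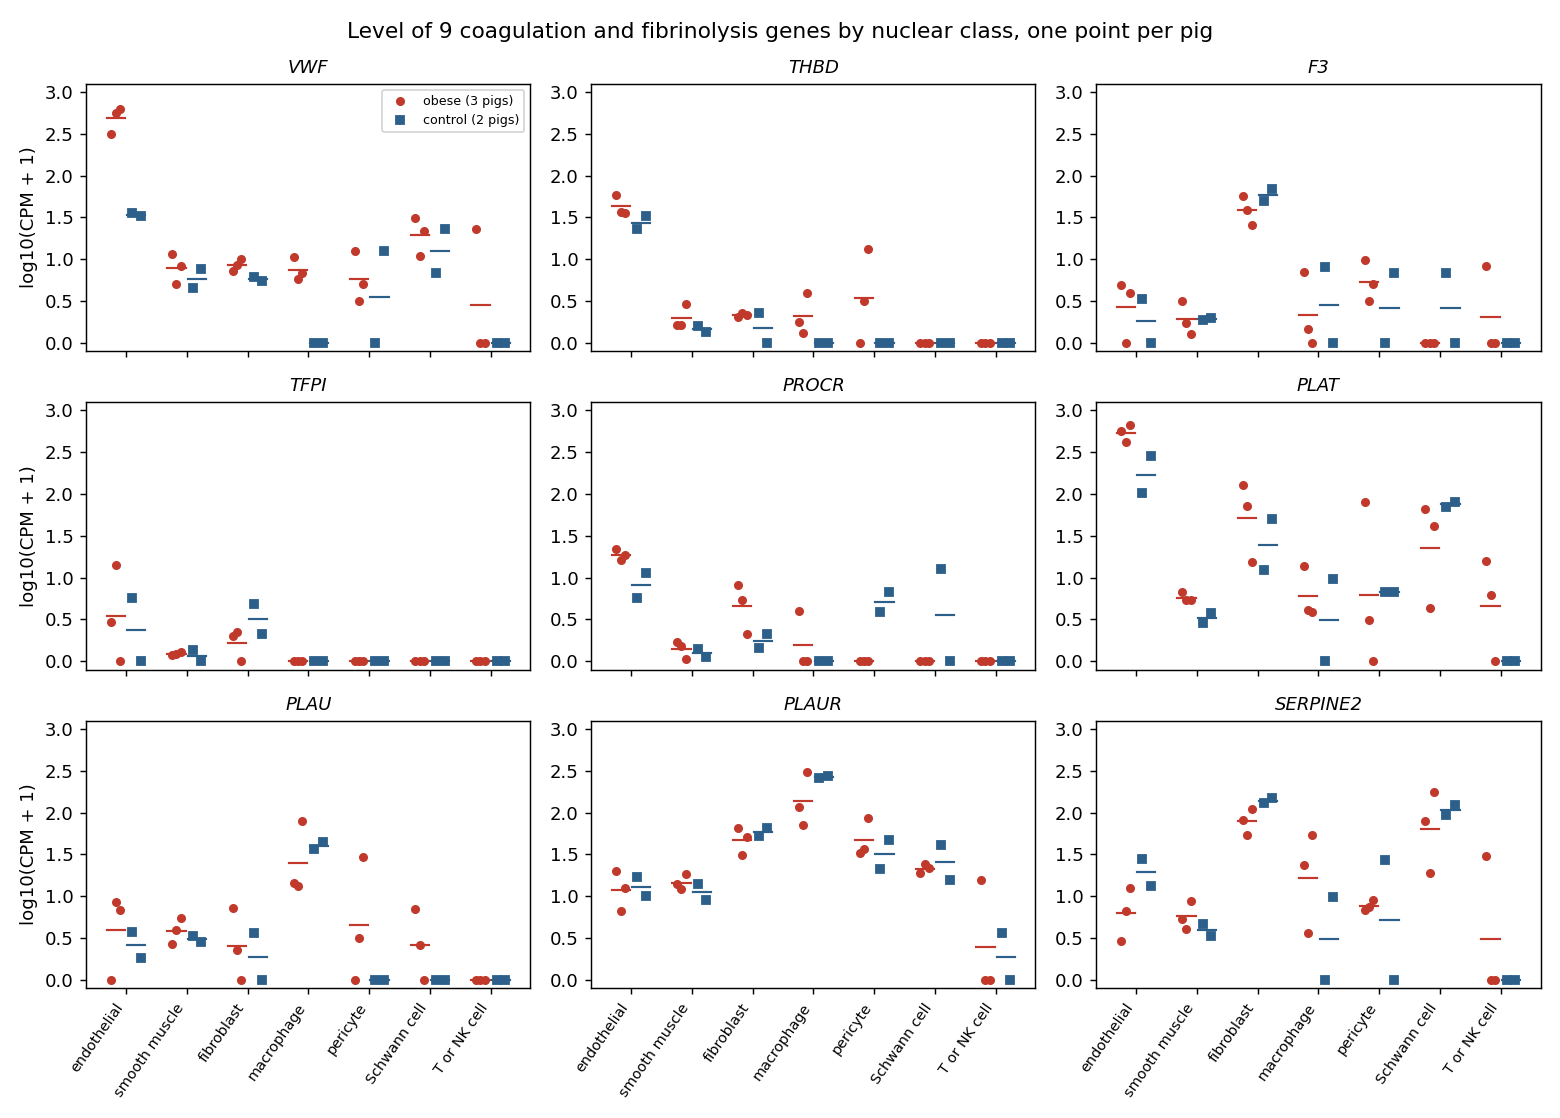
Level of the 9 genes, as log10(CPM + 1), in 7 nuclear classes; red circles are the 3 obese pigs, blue squares the 2 control pigs, and lines are group means on the plotted scale. VWF in endothelial-like nuclei stands out, with all 3 obese pigs above both control pigs, while most other pairs of groups overlap or lie close together.

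VWF, the platelet-tethering protein stored by endothelial cells, was the only one of the 9 genes called by edgeR in any of the 7 classes. In endothelial-like nuclei it stood at 316, 563 and 631 CPM in the obese pigs, against 34.6 and 31.6 CPM in the control pigs. The groups did not overlap, and the lowest obese pig was far above the higher control pig. The counts behind these levels were 164, 297 and 216 UMIs in 197, 226 and 123 obese nuclei, against 88 and 39 UMIs in 410 and 199 control nuclei. VWF averaged 504 ± 166 CPM in obese pigs (SD, n = 3) and 33.1 ± 2.13 CPM in control pigs (SD, n = 2). It rose by 4.00 on the log2 scale (SE 0.41, adjusted p = 0.00336 by edgeR), a 16.0-fold difference. Of the 3 members that passed the filter on low counts in this class, THBD and PLAT did not pass the test by edgeR, while DESeq2 and limma-voom also called PLAT. Across all 6561 genes tested there, 8.66% were called, 410 higher and 158 lower in obese pigs, so a call is not rare in this class.

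The share of endothelial-like nuclei with a VWF molecule separated the pigs in the same way after each nucleus was thinned to 1000 UMIs. It was 26.2%, 29.8% and 29.4% in the obese pigs, against 3.80% and 3.47% in the control pigs, and no exact 95% binomial interval of an obese pig reached that of a control pig. These intervals cover counting error only. In macrophage-like nuclei, a class that should lack VWF, the thinned share was 2.01%, 0.715% and 0% in obese pigs. It was 0% in both control pigs, from 28 and 26 nuclei, for which the exact intervals reach 12.3% and 13.2%. In smooth muscle-like nuclei it was 1.32%, 0.474% and 0.766% in obese pigs and 0.370% and 0.808% in control pigs. The unthinned nuclei behind the endothelial shares were deeper in control pigs, with medians of 6603 and 6331 UMIs among those kept, against 2384, 2471 and 2718 UMIs in obese pigs.

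Which endothelial-like nuclei a pig contributed moved with this difference. The class was made of 5 clusters. Cluster 17 held 399 nuclei of control pigs and 11 of obese pigs, cluster 23 held 113 nuclei of obese pigs and none of control pigs, and clusters 18, 22 and 27 held nuclei of both groups. Of 5 arterial markers, BMX, a kinase gene, was higher in clusters 17 and 23 in every pig, at 407, 530 and 369 CPM in obese pigs and 456 and 393 CPM in control pigs. In the clusters of both groups BMX was at 35.9, 76.9 and 34.6 CPM in obese pigs and 70.7 and 178 CPM in control pigs. NOS3 and EFNB2 were also higher in clusters 17 and 23, in every pig but obese replicate 3. GJA5, another arterial marker, went the other way in every pig, and SEMA3G in 4 of 5 pigs. The venous or capillary marker PLVAP was at most 11.2 CPM in clusters 17 and 23 and at least 52.0 CPM in the clusters of both groups in any pig. ACKR1 was also lower in clusters 17 and 23 in every pig and NR2F2 in every pig but control replicate 2, while SELP and EPHB4 varied by pig. With markers in both directions, these clusters are named by number alone. Clusters of both groups made up 72.6%, 79.6% and 80.5% of endothelial-like nuclei in obese pigs, against 39.0% and 25.1% in control pigs.

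Within the class, nearly all VWF UMIs came from the clusters of both groups. In clusters 17 and 23 together, no VWF molecule was counted in the obese pigs and 12 and 10 UMIs were counted in the control pigs, which is 5.52 and 8.83 CPM. Those UMIs lay in 4.00% and 4.70% of the control nuclei of these clusters, and thinning to 1000 UMIs left none of them. Cluster 23 itself had 0 counts, which allows up to 6.68 CPM.

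Within the clusters of both groups, VWF was at 654, 714 and 935 CPM in obese pigs, against 207 and 287 CPM in control pigs. The groups again did not overlap, but the log2 difference was 1.70 (SE 0.38) where the whole class gave 4.00, and its adjusted p by edgeR was 0.124. In these clusters edgeR called none of 4444 genes, while 471 had an unadjusted p under 0.05. The groups of pigs did not overlap for 28.5% of genes there, so separation alone is common. The thinned share of nuclei with a VWF UMI was 40.5%, 39.8% and 37.9% in obese pigs, against 13% (13 of 100 nuclei) and 22.2% in control pigs. In cluster 18, the largest of the 3, the log2 difference was 1.46 (SE 0.49, adjusted p = 0.392 by edgeR). Its nuclei had a median of 898 UMIs. The smooth muscle gene MYH11 was at 1435 CPM and the endothelial marker PECAM1 at 770 CPM in it, against 226 and 2220 CPM in cluster 17. Over the 3 clusters the medians were 1246, 1467.5 and 1409 UMIs in obese pigs and 1313.5 and 1136 UMIs in control pigs. This division of the class was chosen after the data were seen.

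Markers of other classes also moved within endothelial-like nuclei. The 13 endothelial markers matched, none at 0, summed to 8301, 9607 and 10366 CPM in obese pigs and 10396 and 8510 CPM in control pigs. The 8 lymphatic endothelial markers, none at 0, summed to 197, 116 and 126 CPM in obese pigs and 143 and 149 CPM in control pigs. Singly, 3 of them were higher and 0 lower in every obese pig, while the sums overlapped. The 10 smooth muscle markers summed to 1097, 2247 and 1289 CPM in obese pigs, against 896 and 700 CPM in control pigs, with 4 markers higher and 1 lower in every obese pig and none at 0. Of the 14 macrophage markers, 1 was at 0 throughout, and in every obese pig 2 were higher and 1 lower. They summed to 135, 224 and 81.8 CPM in obese pigs, against 48.4 and 50.3 CPM in control pigs. CD74 alone gave 118, 142 and 61.4 CPM of that in obese pigs and 40.1 and 39.7 CPM in control pigs. The 11 B or plasma cell markers, 3 of them at 0, summed to 960, 1648 and 1304 CPM in obese pigs, against 488 and 228 CPM in control pigs. Of these markers 3 were higher and 1 lower in every obese pig. The same list summed to between 4496 and 5683 CPM in pericyte-like nuclei, so it is not particular to B or plasma cells. Schwann cell markers, 10 with none at 0, summed to 233, 118 and 208 CPM in obese pigs, against 305 and 717 CPM in control pigs. Singly, 2 of them were higher and 1 lower in every obese pig, so the list went both ways. The 11 fibroblast markers, none at 0, summed to 553, 578 and 433 CPM in obese pigs, against 962 and 1060 CPM in control pigs. Of these, 1 was higher and 3 were lower in every obese pig. MYH11, the smooth muscle myosin, was at 686, 904 and 658 CPM in the clusters of both groups in obese pigs and 444 and 633 CPM in control pigs. The part of these markers in the VWF difference was not tested.

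**Figure D2:**
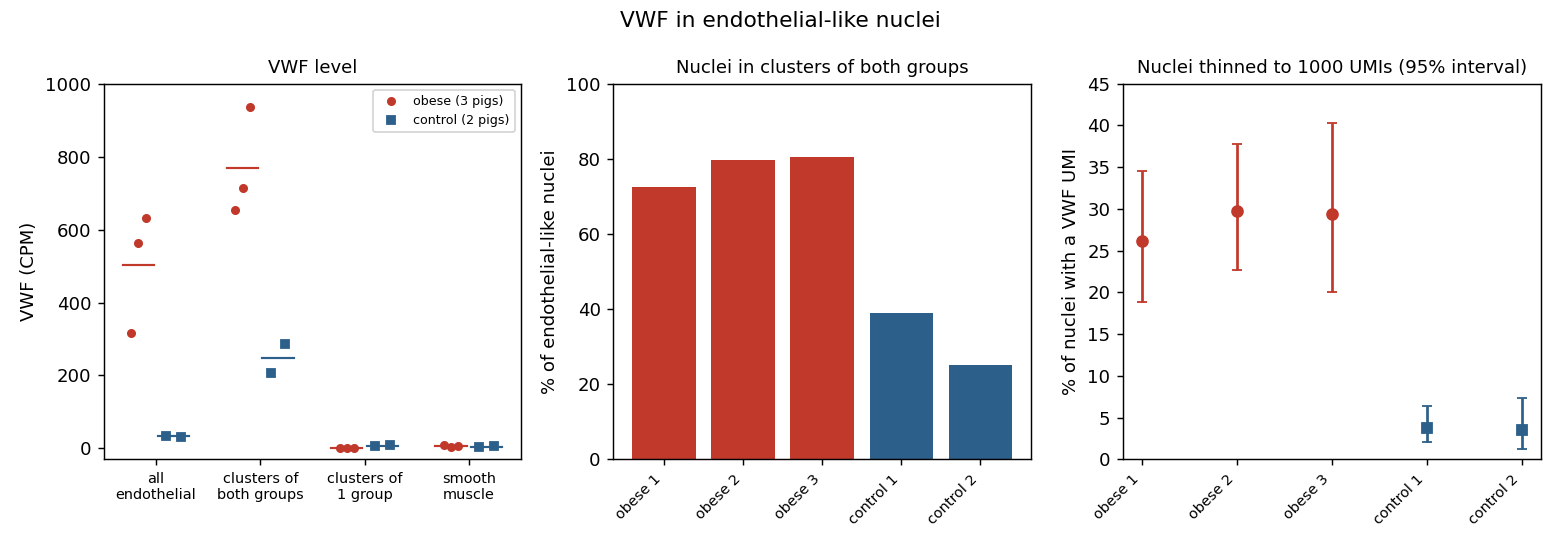
Left, VWF level in CPM per pig (circles obese, squares control, lines group means) in all endothelial-like nuclei, in clusters holding nuclei of both groups, in clusters held by 1 group and in smooth muscle-like nuclei. Middle, percent of each pig's endothelial-like nuclei in clusters of both groups; right, percent of nuclei with a VWF UMI after thinning, with exact 95% binomial intervals, where the obese pigs lie between 26.2% and 29.8% and the control pigs at 3.80% and 3.47%.

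In the other 6 classes VWF was low, with means of 4.08 to 17.5 CPM over the 5 pigs. In smooth muscle-like nuclei it was at 10.7, 4.04 and 7.32 CPM in obese pigs, against 3.46 and 6.54 CPM in control pigs. These groups overlapped, and the log2 difference was 0.50 (SE 0.48, adjusted p = 0.688 by edgeR). No other class passed the filter for VWF. The diet effect on VWF in endothelial-like nuclei exceeded that in smooth muscle-like nuclei by 3.43 on the log2 scale (SE 0.53, adjusted p = 0.00837 by the interaction test of edgeR with the pig as a block). Of 12388 genes in that comparison 0.856% were called. The other pairs called 0.266% of genes for endothelial-like minus fibroblast-like, 0.0% for fibroblast-like minus smooth muscle-like, and 3.15%, 1.19% and 1.78% for macrophage-like minus endothelial-like, fibroblast-like and smooth muscle-like nuclei. That call was lost without obese replicate 3 (3.23, adjusted p = 0.0602), without control replicate 1 (3.99, adjusted p = 0.0564) and without control replicate 2 (2.82, adjusted p = 0.238). Against fibroblast-like nuclei the difference was 3.32 (SE 0.74, adjusted p = 0.0642), which did not pass. VWF was the only one of the 9 genes called in any of the 6 pairs of the 4 main classes.

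Summed over all kept nuclei, VWF was at 20.4, 18.1 and 15.8 CPM in obese pigs, against 5.97 and 8.35 CPM in control pigs. The groups did not overlap, and the log2 difference of 1.27 (SE 0.29) had an adjusted p of 0.165 by edgeR. All 9 genes passed the filter in this sum. None was called, 4 had an unadjusted p under 0.05, limma-voom also called none, and DESeq2 called 2 of them, VWF and PLAU. Across the 20052 genes 0.00499% were called by edgeR, and the groups did not overlap for 30.5% of genes and for 4 of the 9. In such a sum the mix of classes and the level per nucleus cannot be told apart.

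Of the anticoagulant genes, THBD had a clear endothelial place. Thrombomodulin is the thrombin receptor that turns thrombin towards activating protein C. In endothelial-like nuclei THBD was at 57.8, 36.0 and 35.1 CPM in obese pigs, against 22.0 and 31.6 CPM in control pigs. Every obese pig was above both control pigs, as for all 3 members tested in this class, where the groups did not overlap for 44.5% of genes. The log2 difference was 0.78 (SE 0.41, adjusted p = 0.261 by edgeR). By thinned share of nuclei with a THBD UMI the pigs overlapped, at 6.15%, 1.99% and 3.53% in obese pigs and 2.05% and 3.47% in control pigs. Unlike VWF, THBD was present in both kinds of endothelial cluster. It was at 55.9, 26.9 and 72.0 CPM in the clusters held by 1 group in obese pigs and 23.5 and 31.8 CPM in control pigs. In the clusters of both groups it was at 59.9, 38.5 and 17.3 CPM in obese pigs and 13.6 and 29.7 CPM in control pigs, from 35 and 8 UMIs in all. In none of the other 6 classes did the mean over the 5 pigs exceed 2.85 CPM, the value in pericyte-like nuclei.

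PROCR, the receptor that presents protein C to the thrombin and thrombomodulin complex, did not pass the filter in any class. In endothelial-like nuclei it was at 21.2, 15.2 and 17.5 CPM in obese pigs, against 4.72 and 10.5 CPM in control pigs, from 25 UMIs in each group. The groups did not overlap, and the ratio of the pooled levels was 2.72 (95% counting interval 1.50 to 4.93), with no test by pig. This interval covers counting error only and leaves out the spread between pigs. By share of nuclei with a PROCR UMI the pigs overlapped, at 5.08%, 3.097% and 4.07% in obese pigs and 2.20% and 5.53% in control pigs. In the clusters of both groups PROCR was at 31.9, 12.0 and 26.0 CPM in obese pigs and 2.72 and 49.4 CPM in control pigs, which also overlapped. Of the 7 classes, fibroblast-like nuclei came next with a mean of 2.87 ± 2.90 CPM over the 5 pigs. TFPI, which inhibits the tissue factor pathway, was barely detected. All kept nuclei held 9, 20 and 6 TFPI UMIs in obese pigs, against 35 and 1 in control pigs. Endothelial-like nuclei gave 1, 7 and 0 of these in obese pigs and 12 and 0 in control pigs, and the Schwann cell-like, macrophage-like, pericyte-like and T or NK classes gave none. At this depth no difference in TFPI was detectable in any class.

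F3, the cellular starter of coagulation, was mainly a fibroblast gene. Its mean over the 5 pigs was 47.2 ± 16.6 CPM in fibroblast-like nuclei and at most 4.14 CPM, in pericyte-like nuclei, among the other classes, which overlapped one another. In fibroblast-like nuclei it was at 56.8, 38.0 and 24.7 CPM in obese pigs, against 48.7 and 67.6 CPM in control pigs. The groups overlapped, and the log2 difference was -0.52 (SE 0.36, adjusted p = 0.642 by edgeR). In this class 4 members were tested and none was called, by edgeR, DESeq2 or limma-voom, while 1 had an unadjusted p under 0.05 by edgeR. Of all 8744 genes 0.183% were called there. Smooth muscle-like nuclei had F3 at 2.12, 0.740 and 0.276 CPM in obese pigs, against 0.898 and 0.964 CPM in control pigs, a log2 difference of 0.05 (SE 0.72). In endothelial-like nuclei it was counted 3 times in obese pigs and 6 times in control pigs.

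PLAT, the tissue-type activator that endothelial cells release into blood, was the second gene with a large endothelial level. In endothelial-like nuclei it was at 567, 415 and 675 CPM in obese pigs, against 103 and 281 CPM in control pigs. The groups did not overlap, and control replicate 1 stood well below control replicate 2. The log2 difference was 1.62 (SE 0.46), and its adjusted p of 0.0570 by edgeR missed the threshold. DESeq2 (adjusted p = 0.0140) and limma-voom (adjusted p = 0.0363) called it, as did edgeR without control replicate 2, where the log2 difference was 2.50, and without obese replicate 2, where it was 1.86. With nuclei thinned to 1000 UMIs the log2 difference was 0.59 (adjusted p = 0.473).

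PLAT also differed in level by endothelial cluster. In the clusters of both groups PLAT was at 958, 495 and 788 CPM in obese pigs, against 389 and 2878 CPM in control pigs, and 221 of the 291 PLAT UMIs of control replicate 2 there came from 6 nuclei of cluster 22. The groups overlapped and the direction turned, with a log2 difference of -1.09 (SE 0.61, adjusted p = 0.561 by edgeR). In the clusters held by 1 group it was at 201, 117 and 441 CPM in obese pigs, against 54.7 and 49.4 CPM in control pigs. The log2 difference was 2.43 (SE 0.56, adjusted p = 0.0632 by edgeR). These nuclei were mostly of cluster 23 in obese pigs (51, 39 and 23 nuclei) and all of cluster 17 in control pigs (250 and 149 nuclei). A difference between diet groups therefore cannot be told apart here from one between clusters. In those clusters the groups of pigs did not overlap for 36.6% of genes and 1.85% of genes were called.

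PLAT was lower in the other 6 classes. Fibroblast-like nuclei had 127, 70.3 and 14.6 CPM in obese pigs, against 11.2 and 48.8 CPM in control pigs (log2 difference 1.35, SE 0.77, adjusted p = 0.550 by edgeR). Smooth muscle-like nuclei had 5.66, 4.38 and 4.42 CPM in obese pigs, against 1.86 and 2.75 CPM in control pigs. There the groups did not overlap and the log2 difference was 1.00 (SE 0.40, adjusted p = 0.306). Of the 6 members tested in smooth muscle-like nuclei, all with a positive log2 difference, edgeR, DESeq2 and limma-voom called none, and PLAT alone had an unadjusted p under 0.05. Of 16862 genes 0.255% were called in this class, and the groups of pigs did not overlap for 30.0%. In Schwann cell-like nuclei PLAT was at 65.6, 3.28 and 41.0 CPM in obese pigs, against 69.3 and 79.9 CPM in control pigs. Every obese pig was below both control pigs there, and the log2 difference was -1.35 (SE 0.93, adjusted p = 0.663 by edgeR). In Schwann cell-like and pericyte-like nuclei 2 members and 1 member were tested, and edgeR, DESeq2 and limma-voom called none of them. By edgeR none had an unadjusted p under 0.05, while by limma-voom 2 did in Schwann cell-like nuclei. Of all genes 0.0% were called by edgeR in either class, and the groups did not overlap for 27.4% and 27.8% of genes. In the T or NK class no member passed the filter, 0.0% of genes were called and 26.0% did not overlap.

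**Figure D3:**
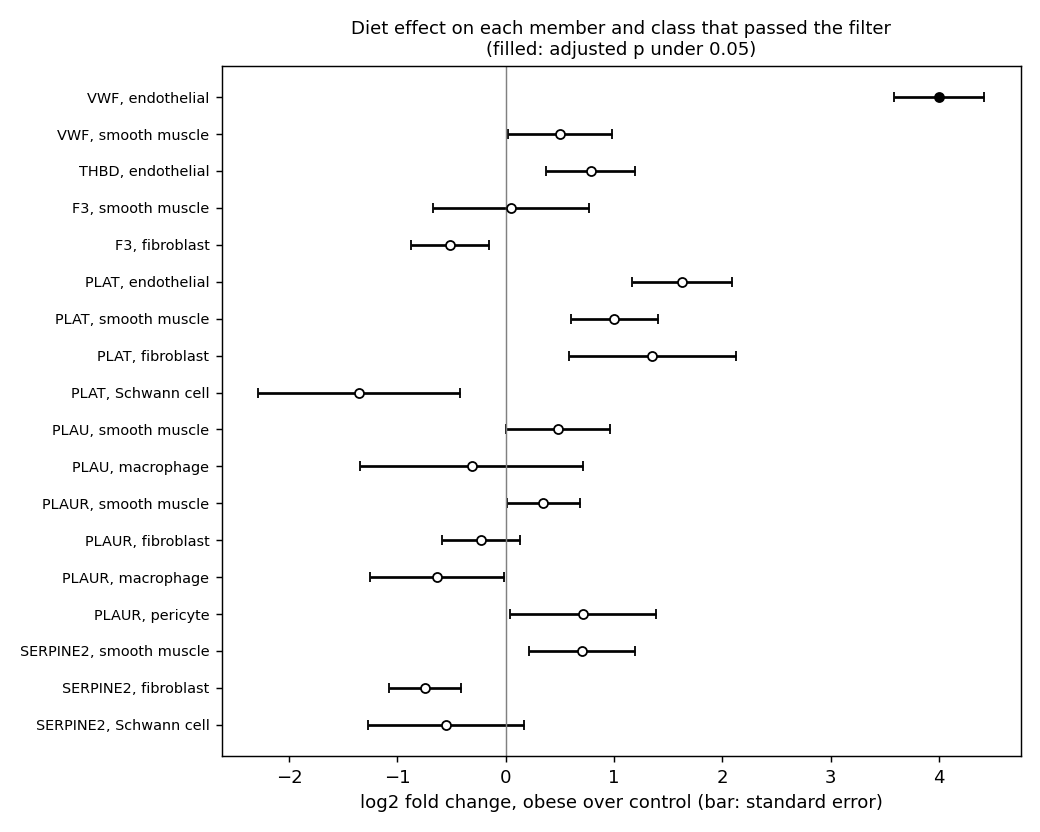
Log2 fold change, obese over control, of each gene in each class where it passed the filter on low counts, with its standard error. The filled point is the only call by edgeR, VWF in endothelial-like nuclei at 4.00, and the open points lie between -1.35 and 1.62.

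PLAU and its receptor PLAUR were led by macrophage-like nuclei. PLAU, the urokinase-type activator tied to pericellular proteolysis, had 13.5, 12.2 and 78.7 CPM in these nuclei in obese pigs, against 35.5 and 43.5 CPM in control pigs. PLAUR had 117, 70.9 and 306 CPM in obese pigs, against 256 and 270 CPM in control pigs. For both genes obese replicate 3 stood above and obese replicates 1 and 2 below the control pigs, so the groups overlapped. The log2 differences were -0.32 (SE 1.03, adjusted p = 0.933 by edgeR) for PLAU and -0.63 (SE 0.62, adjusted p = 0.716) for PLAUR. Neither was called by edgeR, DESeq2 or limma-voom, and neither had an unadjusted p under 0.05, where 0.905% of 5636 genes were called by edgeR and the groups did not overlap for 35.6%.

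The control values rest on few nuclei. Macrophage-like nuclei numbered 412, 1395 and 142 in obese pigs, against 56 and 36 in control pigs, and PLAU on 5 UMIs in each control pig. The 14 macrophage markers, none at 0, summed to 1087, 1795 and 1420 CPM in obese pigs, against 3688 and 2402 CPM in control pigs, with 7 of them lower and 2 higher in every obese pig. The part of this in the 2 genes was not tested.

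Outside macrophages PLAUR was spread through the wall. Fibroblast-like, pericyte-like, Schwann cell-like, smooth muscle-like and endothelial-like nuclei followed in that order, at means of 52.0, 43.9, 23.3, 12.4 and 12.3 CPM over the 5 pigs, and each overlapped the next. In fibroblast-like nuclei PLAUR was at 64.0, 30.4 and 50.6 CPM in obese pigs and 50.9 and 64.3 CPM in control pigs (log2 difference -0.23, SE 0.36, adjusted p = 0.867 by edgeR). In smooth muscle-like nuclei it was at 12.99, 11.1 and 17.2 CPM in obese pigs and 12.9 and 7.99 CPM in control pigs (log2 difference 0.35, SE 0.34, adjusted p = 0.694). PLAU in smooth muscle-like nuclei was at 1.68, 2.96 and 4.42 CPM in obese pigs and 2.31 and 1.86 CPM in control pigs, a log2 difference of 0.48 (SE 0.48, adjusted p = 0.706). In pericyte-like nuclei the log2 difference of PLAUR was 0.71 (SE 0.68, adjusted p = 0.764).

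SERPINE2, the inhibitor of thrombin and of both plasminogen activators, was highest in fibroblast-like nuclei and next in Schwann cell-like nuclei, whose pigs overlapped. In fibroblast-like nuclei it was at 80.6, 52.6 and 109 CPM in obese pigs, against 129 and 147 CPM in control pigs. Every obese pig was below both control pigs, where the groups did not overlap for 27.6% of genes. The 11 fibroblast markers, none at 0, also summed lower in these nuclei, to 1801, 2577 and 2423 CPM in obese pigs, against 3412 and 3179 CPM in control pigs, with 5 lower and 0 higher in every obese pig, and their part in the SERPINE2 values was not tested. The log2 difference was -0.75 (SE 0.33), with an unadjusted p of 0.0486 and an adjusted p of 0.441 by edgeR. In Schwann cell-like nuclei it was at 77.5, 18.1 and 174 CPM in obese pigs, against 92.4 and 123 CPM in control pigs (log2 difference -0.55, SE 0.72, adjusted p = 0.859). In smooth muscle-like nuclei it was at 4.33, 3.02 and 7.80 CPM in obese pigs, against 3.66 and 2.34 CPM in control pigs (log2 difference 0.70, SE 0.49, adjusted p = 0.563). Endothelial-like nuclei held 1, 3 and 4 SERPINE2 UMIs in obese pigs, against 69 and 15 in control pigs, of which 62 and 15 came from clusters 17 and 23, and the gene did not pass the filter.

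Part of the fibrinolysis transcripts came from nuclei outside the named classes. Cluster 3 held 1098, 832 and 2011 nuclei in obese pigs, against 38 and 407 in control pigs. It was led by ANKRD1, GPRC5A and INHBA, reached no class by the marker rule, and had SERPINE2 among its 10 leading genes, so that gene's level in it is a description only. It held 24.9%, 13.4% and 38.3% of the UMIs of all genes in obese pigs, against 0.628% and 12.6% in control pigs, and the shares of single genes are read against these. Of SERPINE2 UMIs it held 79.8%, 67.8% and 81.5% in obese pigs, against 4.68% and 25.8% in control pigs. Of PLAT UMIs it held 46.8%, 16.1% and 53.4% in obese pigs, against 1.24% and 3.47% in control pigs. Both shares were higher in every obese pig, as was that of all genes. Of PLAU UMIs it held 55.8%, 11.9% and 82.7% in obese pigs, against 2.02% and 14.6% in control pigs. Of PLAUR UMIs it held 47.0%, 23.3% and 65.4% in obese pigs, against 1.82% and 24.3% in control pigs. For PLAU and PLAUR obese replicate 2 lay below control replicate 2. Cluster 13, of which 541 of 635 nuclei came from control replicate 1, held 49.5% of the SERPINE2 UMIs of that pig and 0.364% of those of control replicate 2. In obese pigs it held 0.430%, 1.10% and 1.13% of them. Of the 42678647 UMIs of all genes in control replicate 1, this cluster held 3986254.

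Within cluster 3, PLAT was at 107, 38.0 and 55.4 CPM in obese pigs, against 22.4 and 6.29 CPM in control pigs. The groups did not overlap, as for 31.7% of genes in the cluster, and the log2 difference was 2.94 (SE 0.65, adjusted p = 0.142 by edgeR). By unthinned share of nuclei with a PLAT UMI the pigs overlapped. It was 5.92%, 4.93% and 2.09% in obese pigs and 10.5% (4 of 38 nuclei) and 2.95% in control pigs. PLAU was at 11.3, 4.37 and 47.4 CPM in obese pigs and 7.47 and 2.36 CPM in control pigs. PLAUR was at 71.2, 52.9 and 77.5 CPM in obese pigs and 59.7 and 28.7 CPM in control pigs. Both overlapped between groups, and their log2 differences of 2.94 and 0.94 had adjusted p of 0.368 and 0.361. THBD was counted 15, 15 and 51 times in obese pigs and 0 and 1 times in control pigs, from which no fold is given. SERPINE2 was at 144, 85.2 and 116 CPM in obese pigs, with the control pigs at 202 and 27.9 CPM on either side of them. The 54 UMIs of control replicate 1 came from 2 of its 38 nuclei. By unthinned share of nuclei with a SERPINE2 UMI the obese pigs were at 12.7%, 13.5% and 10.7%, against 5.26% and 7.13% in control pigs. In this cluster 0.0392% of 12741 genes were called.

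Where clusters 3 and 13 were joined to the smooth muscle-like nuclei, a grouping chosen after the data were seen, none of the members tested was called by edgeR, where 0.251% of genes were called and 30.6% did not overlap. PLAT then stood at 37.2, 11.003 and 25.9 CPM in obese pigs, against 2.20 and 3.22 CPM in control pigs. Its log2 difference of 3.18 (SE 0.54, adjusted p = 0.0533 by edgeR) set beside 1.00 without those clusters shows how far the value depends on where these nuclei are counted. PLAU had a log2 difference of 2.33 (adjusted p = 0.229) and SERPINE2 of 1.58 (adjusted p = 0.235), against 0.48 and 0.70 without those clusters.

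**Figure D4:**
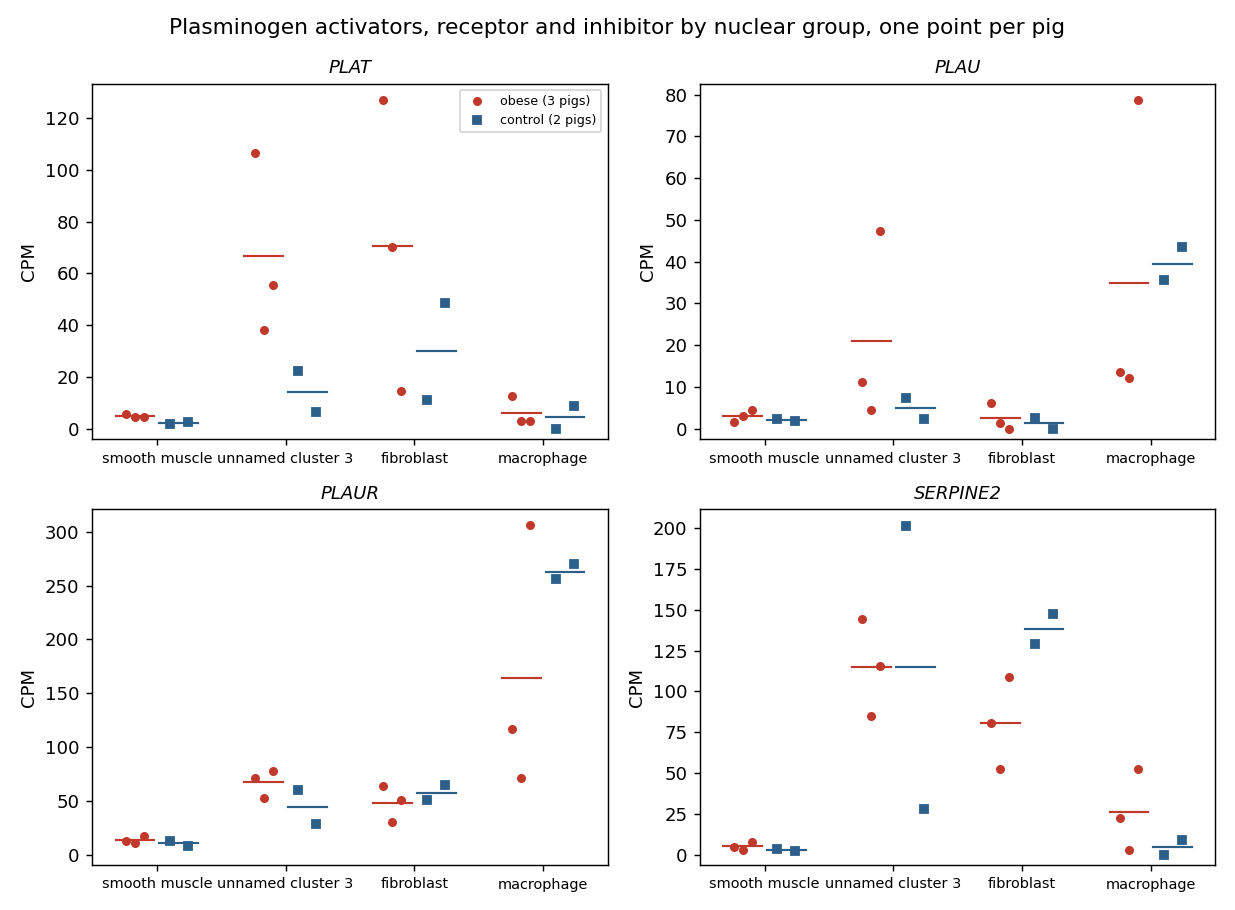
Level in CPM of the plasminogen activators PLAT and PLAU, the receptor PLAUR and the inhibitor SERPINE2 per pig (circles obese, squares control, lines group means) in smooth muscle-like nuclei, unnamed cluster 3, fibroblast-like and macrophage-like nuclei. PLAT in cluster 3 is higher in each obese pig than in the control pigs, SERPINE2 in fibroblast-like nuclei is lower in each, and PLAU and PLAUR in macrophage-like nuclei overlap.

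A wider list of 55 other haemostasis genes, of which 50 matched by symbol, was read in the same tests. In endothelial-like nuclei 17 were tested, 2 rose, THBS1 and FGL2, and none fell, where 8.66% of all genes were called. In fibroblast-like nuclei 20 were tested, 2 rose, of which THBS1 is described here, and none fell, where 0.183% of all genes were called. Of 30 tested in smooth muscle-like nuclei, THBS1 alone rose, where 0.255% of all genes were called. In the macrophage-like, pericyte-like, Schwann cell-like and T or NK classes 11, 9, 4 and 4 were tested and none was called by edgeR. The median log2 difference of the list was 0.44 in endothelial-like, 0.22 in fibroblast-like, 0.04 in smooth muscle-like and 0.66 in macrophage-like nuclei, while that of all genes tested lay within 0.05 of 0 in these classes.

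THBS1 encodes thrombospondin 1, a platelet and matrix glycoprotein. In smooth muscle-like nuclei it was at 815, 374 and 619 CPM in obese pigs, against 61.4 and 70.9 CPM in control pigs, and rose by 3.14 on the log2 scale (SE 0.37, adjusted p = 0.0195 by edgeR). It rose by 2.47 in fibroblast-like nuclei (SE 0.30, adjusted p = 0.0237) and by 2.94 in endothelial-like nuclei (SE 0.56, adjusted p = 0.0136). In each of these classes every obese pig was above both control pigs. The call in smooth muscle-like nuclei was lost without obese replicate 1 (adjusted p = 0.0977), control replicate 1 (0.167) or control replicate 2 (0.0637), with log2 differences of 2.86, 3.00 and 3.27. In fibroblast-like nuclei it was lost without the same pigs (adjusted p = 0.226, 0.509 and 0.245), and in endothelial-like nuclei without control replicate 2 (0.0609). In the endothelial clusters of both groups the THBS1 difference was 2.15 (adjusted p = 0.124).

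FGL2, a membrane prothrombinase related to fibrinogen, was at 27.0, 47.4 and 52.6 CPM in endothelial-like nuclei of obese pigs, against 9.44 and 4.05 CPM in control pigs. It rose by 2.60 (SE 0.54, adjusted p = 0.0197 by edgeR), a call lost without control replicate 2 (adjusted p = 0.0993). In the endothelial clusters of both groups its difference was 0.64 (adjusted p = 0.810). Of the other abundant genes of the list that are described here, ENTPD1, which degrades the ADP that activates platelets, was at 1635, 383 and 365 CPM in endothelial-like nuclei of obese pigs, against 1979 and 1884 CPM in control pigs (log2 difference -1.19, SE 0.58, adjusted p = 0.229). ANXA5, a phospholipid-binding anticoagulant, had log2 differences of 1.17 in endothelial-like (adjusted p = 0.0649), 1.07 in fibroblast-like (0.220) and 0.58 in smooth muscle-like nuclei (0.262). F8, coagulation factor VIII, differed by 0.56 in endothelial-like nuclei (SE 0.30, adjusted p = 0.272). F13A1, the fibrin-crosslinking subunit of factor XIII, led the macrophage-like cluster and differed by 0.95 there (SE 0.73, adjusted p = 0.615). In macrophage-like nuclei THBS1 differed by 3.49 (SE 1.12, adjusted p = 0.193). Further values were A2M at -0.86 in smooth muscle-like nuclei (adjusted p = 0.418) and, in fibroblast-like nuclei, ANXA2 at 0.18 (adjusted p = 0.879) and F2R at 0.25 (adjusted p = 0.847).

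**Figure D5:**
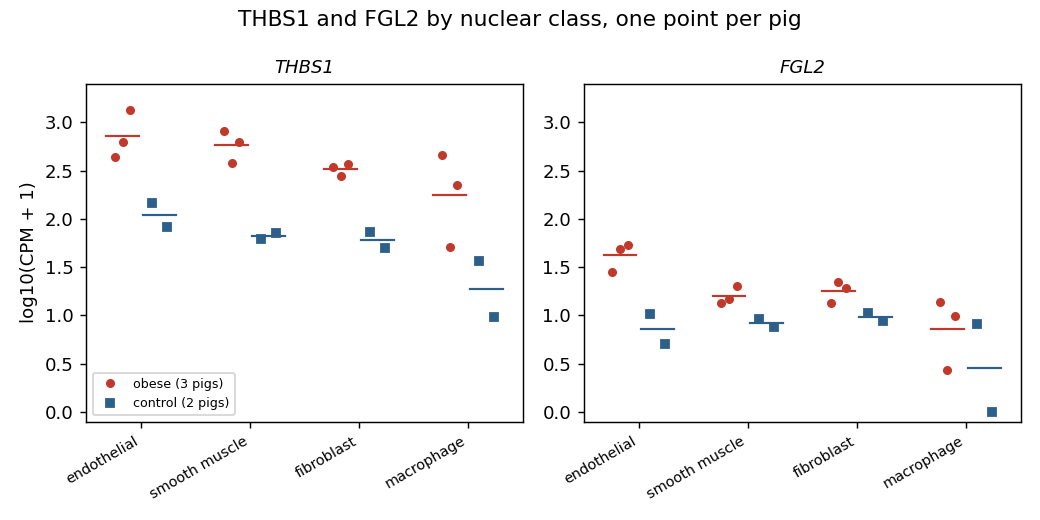
Level, as log10(CPM + 1), of THBS1 and FGL2 in 4 classes; red circles are the 3 obese pigs, blue squares the 2 control pigs, and lines are group means on the plotted scale. THBS1 is higher in each obese pig than in both control pigs in all 4 classes, and it rose in 3 of them by the test.

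The genes whose level followed each member most closely over the 35 sums of class and pig were ranked by Pearson's r of log2(CPM + 1) among 7880 genes, as a description. VWF was followed by ABAT (r = 0.81), EPB41L4A and DIPK2B, and THBD by DIPK2B (0.90), BMX and SHE. F3 was followed by PRELP (0.84), JAK2 and LMX1A, TFPI by CD34 (0.65), ALDH1A2 and RSPO3, and PROCR by ENPP2 (0.80), MYRIP and TACR1. PLAT was followed by ZNF521 (0.81), PTPRM and FGD5, PLAU by CD83 (0.81) and CSF1R, PLAUR by LMNTD1 (0.88), ACER3 and ARHGAP32, and SERPINE2 by EYA2 (0.82), EPHA7 and TMEM132C. These sums share libraries and classes, and TFPI, with the smallest r, has the fewest counts of the 9 genes.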

How the data were processed

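The authors deposited raw UMI counts per gene and nucleus for each of 5 libraries. Per the submitters' processing notes these came from Cell Ranger 5.0 with the build Sscrofa11, with Seurat 5.0 for later steps, while the file headers give Cell Ranger 7.1.0. Barcodes with under 300 genes or over 5% mitochondrial UMIs were removed (77 of 45580). Scrublet's own threshold marked 2 doublets, so the 3517 barcodes with the top scores were removed, at an assumed rate of 0.8% per 1000 barcodes, leaving 41986 nuclei with 143659131 UMIs. Nuclei were scaled to 10000 UMIs, reduced to 3000 variable genes and 30 components, and clustered by Leiden (scanpy 1.11.5, leidenalg 0.10.2, resolution 1.0, 20 neighbours), with a second round at 0.5 for endothelial clusters and for those led by markers of another class. A class name needed at least 3 of its listed markers.

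Counts were summed per pig and class and tested with edgeR 4.0.16 in R 4.3.3 (TMM, filterByExpr, quasi-likelihood F-test, Benjamini-Hochberg over all genes of the class). Interaction tests had the pig as a block. The main tests by class leave 3 residual degrees of freedom among pigs, and their p-values measure the spread between these pigs. Fits with the replicate block or without 1 pig leave fewer. Interaction tests are fitted to class sums, so their residual spread is that of class sums within pigs. The scripts were tested on simulated data. Alternatives were DESeq2 1.42.0, limma-voom (limma 3.58.1), RLE factors, no filter, a replicate block, each pig left out, no doublet removal, other clusterings, a minimum of 1000 UMIs and thinning to 1000 UMIs. In fits with 1 control pig, that pig's spread was taken to equal that of the obese pigs.

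The 9 genes, the 55 listed genes and the tests were chosen with earlier results of these data known. Named are all 9 genes, listed genes called in a class, the 5 listed genes of highest level in each of 4 main classes, and the 3 genes of most alike pattern, except that the results of 2 genes are not reported here. Classes with under 20 nuclei in a pig (lymphatic endothelium, B or plasma cells) were not tested.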

Additional observations from a re-analysis of the deposited data

Results flagged for a closer look

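The diet effect on VWF differed between classes by its own test. In endothelial-like nuclei VWF averaged 504 CPM in obese pigs and 33.1 CPM in control pigs, while in smooth muscle-like nuclei it averaged 7.35 CPM in obese pigs and 5.00 CPM in control pigs. The effect in endothelial-like nuclei was larger by 3.43 on the log2 scale (SE 0.53, adjusted p = 0.00837 by the interaction test of edgeR). The call did not hold in every fit without 1 pig, over which the difference ran from 2.82 to 4.01. In the endothelial clusters of both groups the VWF difference between obese and control pigs was 1.70 and was not called. VWF was higher in 3 of 3 obese pigs in endothelial-like nuclei, and the pigs overlapped in smooth muscle-like nuclei. Nuclei of clusters 17 and 23, where VWF was at 0 CPM in each obese pig and 5.52 and 8.83 CPM in control pigs, were 27.4%, 20.4% and 19.5% of the endothelial-like nuclei in obese pigs, against 61.0% and 74.9% in control pigs.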

How the results depend on the processing

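Of 393 recomputed diet effects on the 9 genes, 360 kept direction and side of the threshold, 11 passed it where the main test did not, 2 no longer passed it and 20 changed direction. The rise of VWF in endothelial-like nuclei was called under every alternative that kept the whole class, with 3.75 to 4.27 on the log2 scale over the 5 fits without 1 pig and 3.11 after thinning. It was not called in the clusters of both groups (1.70) or in those clusters with at least 1000 UMIs (1.78). The VWF difference between endothelial-like and smooth muscle-like nuclei ran from 2.82 to 4.01 without 1 pig. Its call was lost in some of these fits, among them that without obese replicate 3. The difference against fibroblast-like nuclei ran from 3.22 to 3.43, passing the test without obese replicate 1 and at 3.35 for that pair alone.

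Directions turned for PLAT in the endothelial clusters of both groups (-1.09, and -1.25 with at least 1000 UMIs). F3 in smooth muscle-like nuclei turned with limma-voom (-0.36), no filter (-0.0037), no doublet removal (-0.045), at least 1000 UMIs (-0.16) and, over the fits without 1 pig, ran from -0.93 to 0.50. PLAUR in fibroblast-like nuclei turned without doublet removal (0.041) and after thinning (0.37), and ran from -0.48 to 0.072 without 1 pig. PLAU in macrophage-like nuclei turned at resolution 0.5 (0.19) and ran from -1.53 to 0.13 without 1 pig, and SERPINE2 in Schwann cell-like nuclei ran from -1.45 to 0.18. TFPI over all kept nuclei was 0.32 with limma-voom, 0.55 with the block and 0.023 without doublet removal, and ran from -1.002 to 2.84 without 1 pig. The causes were not tested. PLAT in endothelial-like nuclei passed the test with DESeq2, limma-voom, no filter, the block, no doublet removal, and without obese replicate 2 or control replicate 2. PLAT in fibroblast-like nuclei passed with no filter and with the block, and VWF and PLAU over all kept nuclei passed with DESeq2.

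Counts of all genes called, against which the members are read, moved more. With DESeq2 they were 564 in smooth muscle-like, 99 in fibroblast-like, 253 in macrophage-like, 30 in pericyte-like, 9 in Schwann cell-like and 18 in T or NK cell-like nuclei and 796 over all kept nuclei. With no filter they were 875, 338, 458, 81, 70 and 63 in the same classes, 1056 in endothelial-like nuclei and 559 over all. With limma-voom they were 21 in smooth muscle-like, 0 in macrophage-like and 5 in Schwann cell-like nuclei. Thinning gave 9 in smooth muscle-like, 26 in fibroblast-like, 357 in endothelial-like, 3 in Schwann cell-like and 4 in T or NK cell-like nuclei and 0 over all, and a minimum of 1000 UMIs 9 in fibroblast-like nuclei and 2 over all. No doublet removal gave 46 in fibroblast-like, 80 in macrophage-like, 2 in Schwann cell-like and 1 in T or NK cell-like nuclei. Resolution 0.5 gave 24 in smooth muscle-like, 34 in fibroblast-like, 124 in macrophage-like and 1 in pericyte-like nuclei, and clustering without the listed genes 80 in smooth muscle-like nuclei. In endothelial-like nuclei the clusters of both groups gave 0, at either depth. The clusters held by 1 group gave 83, where mostly cluster 23 in obese pigs was set against cluster 17 in control pigs. Without 1 pig the counts ran from 186 to 535 in endothelial-like, 2 to 175 in smooth muscle-like, 0 to 155 in fibroblast-like, 0 to 141 in macrophage-like, 0 to 5 in Schwann cell-like and 0 to 1 in T or NK cell-like nuclei and 0 to 355 over all. By the thinned share of nuclei with a UMI, 8 of the 9 genes kept the class of highest level, and SERPINE2 moved to Schwann cell-like nuclei (8.21%, against 7.28% in fibroblast-like nuclei).

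Replicate numbers 1 and 2 occur in both groups but nothing in the labels ties the pigs that share one, and the correlation of their deviations ran from -0.08 to 0.22 over 4 classes and all nuclei. Replicate number 3 occurs in the obese group alone, so obese replicate 3 adds nothing to the diet difference in the fit with the replicate block. That fit sets obese replicates 1 and 2 against the control pigs, with fewer residual degrees of freedom. With this block the VWF difference in endothelial-like nuclei was 3.68, and 170 genes were called in smooth muscle-like, 317 in fibroblast-like, 0 in macrophage-like and 3 in Schwann cell-like nuclei and 372 over all kept nuclei. Low counts limit TFPI and PROCR in every class, and few nuclei limit the macrophage-like values of control pigs.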

Other observations

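Lymphatic endothelial-like nuclei, too few to test, carried VWF, PLAT and THBD. They numbered 18, 58 and 5 in obese pigs, against 16 and 8 in control pigs. VWF was at 173, 472 and 577 CPM in obese pigs, against 345 and 225 CPM in control pigs, and the groups overlapped. PLAT was counted 75, 298 and 186 times in obese pigs, against 67 and 0 times in control pigs, and PROCR 1, 25 and 0 times in obese pigs and never in control pigs. Per UMI these levels exceeded those of endothelial-like nuclei for PLAT in 4 of 5 pigs, at 647, 998 and 4468 CPM in obese pigs and 857 and 0 CPM in control pigs. THBD was at 86.3, 53.6 and 216 CPM in obese pigs, against 12.8 and 0 CPM in control pigs, from 10, 16 and 9 UMIs in obese pigs and 1 and 0 UMIs in control pigs.

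Cluster 12, led by kidney tubule genes such as PCK1 and G6PC1 and left unnamed, held 51, 6 and 34 VWF UMIs in obese pigs, against 2 and 3 in control pigs. That is 113, 107 and 137 CPM in obese pigs and 15.8 and 87.8 CPM in control pigs, a log2 difference of 1.75 (SE 0.77, adjusted p = 0.480 by edgeR). The cluster held 428, 40 and 252 nuclei of obese pigs, against 53 and 25 of control pigs.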
